A study of Mus musculus with 60 samples.

Results

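Fosb is 1 of the 35889 mouse genes to which the deposited transcript quantifications were summed, and its 7 annotated transcripts are all described here, of 117209 transcripts in each file. The members were taken from annotation alone, as every transcript identifier that GENCODE vM39 assigns to gene ENSMUSG00000003545. The source study let female and male mice work for intravenous cocaine and for sucrose pellets on alternating days, and later tested cue-induced seeking of each reward in separate sessions. The mice were Ai14xFosiCre (Ai14:cFos-TRAP2): a tamoxifen-inducible Cre driven from the Fos locus switches on tdTomato, so an injection of 4-hydroxytamoxifen after the cocaine session tagged cells active at that time, and cells active in the later sucrose session were stained for cFos protein. NeuN-positive cells of the medial prefrontal cortex (mPFC) and of the nucleus accumbens (NAc) were sorted into cocaine-seeking (tdTomato alone), sucrose-seeking (cFos alone), overlapping (both) and non-ensemble (neither) populations. Each library is 1 population from a pool of 3 mice, with 3 pools per sex, which gives 48 libraries in 16 groups of 3, and all 4 populations of both regions with the same replicate number were taken as coming from the same pool.

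A further 12 libraries, 3 per region and sex, carry the population label naive. Their genotype is the same and they are given the same dual self-administration treatment as the other libraries, so the labels do not say in what sense they were naive, and only their levels are given, without a test. All 60 libraries therefore come from animals that carry the Fos-driven Cre allele and the reporter, and none is from a wild-type mouse. The labels give no age. They name the accumbens core, while the methods describe a punch of lateral core and shell. They name polyA RNA, while the methods describe a ribosome-depleted low-input SMART-seq library. The sex label of 2 male mPFC libraries of replicate 3 reads female, and these were grouped by their titles.

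Fosb encodes FosB, a basic leucine zipper protein of the Fos family, which pairs with a Jun protein to form the transcription factor AP-1. Like Fos it is an immediate early gene, transcribed within minutes of strong neuronal activity through serum response factor and CREB at its promoter. Its primary transcript can be spliced in a second way that removes a short stretch of the last exon and shifts the frame, so that the protein stops early. The product, ΔFosB, lacks the C-terminal transactivation domain and the degron of the full-length protein, is unusually long-lived, and is known for building up in the nucleus accumbens over repeated drug or reward exposure.

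Fosb lies on the minus strand of GRCm39 at chr7:19036621-19043976. The full-length reference transcript, Fosb-201, has 4 exons, 3782 bases and 338 codons before the stop. Fosb-202, Fosb-203 and Fosb-205 keep the end of the coding frame but lack exon 3 (108 bases, 19040484 to 19040591), the first 117 bases of exon 2 (19041249 to 19041365), or both, and code for 302, 263 and 299 residues. Fosb-206 is the truncated, ΔFosB-type transcript: 140 bases of exon 4 (19038932 to 19039071) are spliced out, and the frame ends after 237 codons, 101 fewer than in Fosb-201. Fosb-207 has the same splice and also lacks exon 3. Fosb-204 is a single unspliced exon of 3629 bases (19040341 to 19043969) annotated as a retained intron, with 2461 intronic and 1168 exonic bases and no coding frame.

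The 3 windows of coding sequence that tell the truncated form from the full-length form are printed 5′ to 3′ on the gene's strand, read from GRCm39. The first crosses the junction of the truncated form and its capitals mark the 15 bases after the junction, which open with the stop codon TGA. The others are the donor and the acceptor side in the full-length form, and their capitals mark the ends of the stretch of 140 bases that only the full-length form keeps.
truncated form across the junction: ggcccgctggccgagTGAAGTTCAAGTCCT
full-length form at the donor side: ggcccgctggccgagGTGAGAGATTTGCCA
full-length form at the acceptor side: TCTCTTTACACACAGtgaagttcaagtcct
The lower-case letters are common to both forms. The deposited files list Fosb-206 at 1090 bases in an earlier version of the transcript, against 3641 in vM39. The sequence of that version was not used here, and its identity as a truncated form is taken from the identifier alone, so every truncated count and share below rests on that assumption. Fragments from sequence that the shorter version lacks can also be assigned to Fosb-201 and not to Fosb-206. The other 6 transcripts differ from vM39 by at most 11 bases.

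The 48 libraries held 9933361 to 24500899 estimated counts in all, and the naive libraries 29238727 to 45299753. Fosb itself had 103 to 493 estimated counts per library (median 231) in the 48 and 312 to 1445 in the naive libraries, so it was measured in all 60, while its single transcripts rest on far fewer fragments. Markers of the labelled region were low in some libraries. The summed level of 4 cortical projection neuron markers (Slc17a7, Neurod6, Tbr1, Neurod2) was 153 to 709.55 counts-per-million (CPM) in the 24 NAc libraries. It was 347 to 847 CPM in the male mPFC libraries of pools 1 and 3, but 31.0 to 109.99 CPM in the 12 female mPFC libraries and 48.4 to 57.1 CPM in the 4 male mPFC libraries of pool 2. In these 16 mPFC libraries the sum was below that of every NAc library, so the tests of region in males and in single populations are also given for male pools 1 and 3 alone. The summed level of 6 striatal projection neuron markers was 1024 to 2654 CPM in the NAc libraries. In the mPFC it was 1365 to 1686 CPM in male pool 2, inside the NAc range, 557 to 1439 CPM in females and 245 to 955 CPM in male pools 1 and 3. Astrocyte and oligodendrocyte markers were present in all libraries in spite of the NeuN sort, at summed levels of 1645 to 5447 and 899 to 3613 CPM against 784 to 3112 CPM for neuronal markers. The Y-linked gene Ddx3y stood at 11.3 to 20.4 CPM in the 8 female libraries of pool 2, at 0.0822 to 2.01 CPM in the other 16 female libraries and at 15.7 to 43.3 CPM in males, so the tests named for females are also given without pool 2.

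Fosb mRNA was at a moderate level in every population, and with all libraries and no replicate block edgeR called no difference between populations. Levels of the gene are given here as CPM with TMM scaling. Over the 48 libraries the mean was 16.7 ± 5.54 CPM (SD, n = 48), with a range from 8.93 CPM in an overlapping library of the female NAc to 41.8 CPM in a non-ensemble library of the male mPFC. The libraries are bulk RNA of sorted cells, in which fewer expressing cells and less Fosb RNA per cell cannot be told apart.

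In the female NAc the cocaine-seeking libraries of pools 1 to 3 held 14.0, 20.1 and 12.1 CPM, and the non-ensemble libraries 14.7, 14.5 and 20.2 CPM. The sucrose-seeking libraries held 11.1, 10.96 and 13.4 CPM and the overlapping libraries 8.93, 14.1 and 10.5 CPM. The sucrose-seeking and overlapping values all lay below the 3 non-ensemble values, while cocaine-seeking overlapped with all other populations. In the male NAc the cocaine-seeking libraries held 16.2, 17.3 and 18.4 CPM, and the non-ensemble libraries 12.2, 21.7 and 16.8 CPM. The overlapping libraries were close together at 14.2, 14.3 and 14.2 CPM, and the sucrose-seeking libraries held 17.9, 14.0 and 12.7 CPM. Here the cocaine-seeking libraries all lay above the overlapping ones, and each other pair of populations overlapped.

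In the female mPFC the 4 populations covered nearly the same range. The cocaine-seeking libraries held 14.6, 17.8 and 14.5 CPM, the sucrose-seeking libraries 13.0, 18.1 and 12.2 CPM, the overlapping libraries 12.5, 17.7 and 12.5 CPM and the non-ensemble libraries 15.6, 20.5 and 12.6 CPM. Pool 2 was the highest in all 4 of them. In the male mPFC the cocaine-seeking libraries held 16.8, 26.7 and 25.8 CPM, the sucrose-seeking libraries 11.4, 19.6 and 21.2 CPM, the overlapping libraries 17.4, 23.0 and 22.9 CPM and the non-ensemble libraries 16.3, 23.5 and 41.8 CPM. Pool 1 was the lowest in all 4 populations, and the highest library, at 41.8 CPM, stood far above the 23.5 CPM of the next library of its group.

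Ordered by group mean, the highest were male mPFC non-ensemble at 27.2 ± 13.2 CPM (SD, n = 3), male mPFC cocaine-seeking at 23.1 ± 5.47 CPM and male mPFC overlapping at 21.1 ± 3.23 CPM. The lowest were female NAc overlapping at 11.2 ± 2.66 CPM, female NAc sucrose-seeking at 11.8 ± 1.39 CPM and female mPFC overlapping at 14.2 ± 3.03 CPM. The other 10 groups lay between 14.3 and 17.4 CPM. Neighbours in this order differed by less than the larger of their SDs.

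**Figure D1:**
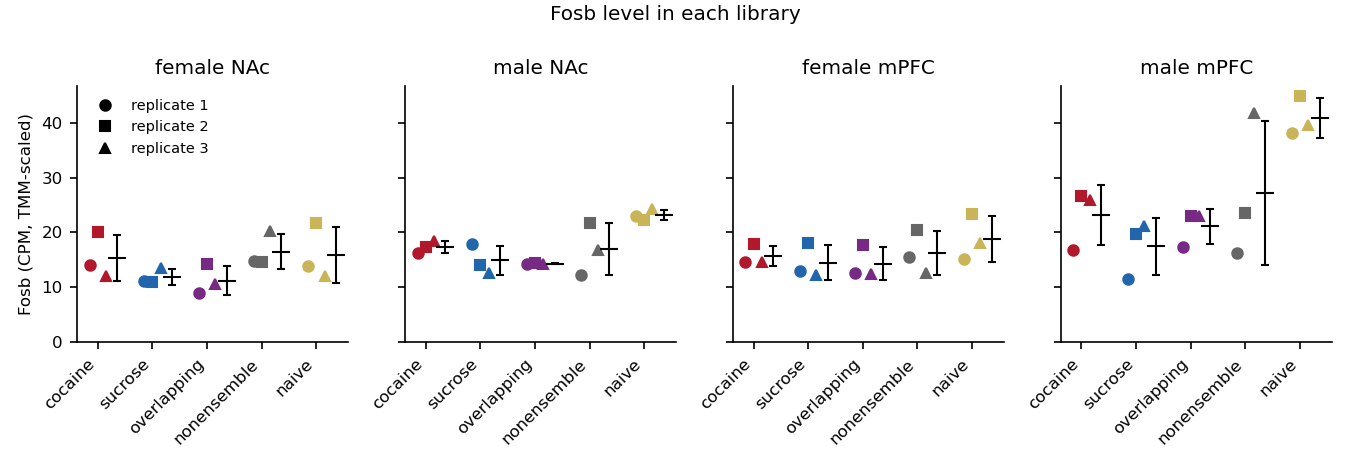
Fosb level in each of the 60 libraries, in counts-per-million with TMM scaling, by region, sex and population, with points for libraries and bars for group means. Each pair of populations overlaps in the mPFC of each sex, the sucrose-seeking and overlapping libraries of the female NAc lie below its non-ensemble libraries, and the highest sorted library is in the male mPFC, at 41.8 CPM.

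Whether Fosb differed between ensembles within a region was tested with edgeR on 6 pools per population, keeping the sexes as separate groups. In the NAc, sucrose-seeking and overlapping cells had lower fitted Fosb than non-ensemble cells, and cocaine-seeking cells did not, but no difference passed an adjusted p of 0.05. Sucrose-seeking against non-ensemble gave a log2 difference of -0.36 (SE 0.16, edgeR adjusted p = 0.10) and was lower in 5 of 6 pools, in a comparison where 27% of all genes were called. The median of all genes in it was 0.20, and with counts scaled to transcript length the Fosb difference was 0.16 in the other direction. Without male replicate 1 it was -0.50 with an adjusted p of 0.036, and without male replicate 2 -0.21 with 0.50. Overlapping against non-ensemble gave -0.41 (SE 0.16, edgeR adjusted p = 0.15), lower in 5 of 6 pools, with 2.09% of all genes called, and -0.18 with length-scaled counts. Cocaine-seeking against non-ensemble gave -0.03 (SE 0.16, edgeR adjusted p = 0.94), with 3 pools in each direction and 0.145% of genes called, and its sign turned to 0.32 with length-scaled counts, to 0.12 without female replicate 3 and to 0.06 without male replicate 2.

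Cocaine-seeking cells of the NAc were higher in Fosb than overlapping cells in 6 of 6 pools, by log2 differences of 0.18 to 0.65 within a pool. The fitted difference was 0.37 (SE 0.16) but its edgeR adjusted p was 1.00, and in that comparison 0 of the 27546 genes tested was called by edgeR (0%), with 774 at an unadjusted p under 0.05 and 4 called by DESeq2. Cocaine-seeking against sucrose-seeking gave 0.33 (SE 0.16, edgeR adjusted p = 0.28, 5.29% of genes called), at its lowest 0.12 without female replicate 2, and overlapping against sucrose-seeking -0.04 (SE 0.16, edgeR adjusted p = 0.97, 1.09% called), which turned to 0.02 without male replicate 1. The comparisons share their libraries, so their values are given side by side and not as separate evidence.

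In the mPFC, sucrose-seeking cells were lower in Fosb than non-ensemble cells in 6 of 6 pools, by log2 differences of -0.98 to -0.04 within a pool. The fitted difference was -0.34 (SE 0.20, edgeR adjusted p = 0.29), with 13% of genes called and a median of all genes of 0.12. With the pool as a replicate block it was -0.32 (edgeR adjusted p = 0.046) and was called, where 25.3% of all genes were called. Overlapping against non-ensemble gave -0.24 (SE 0.20, edgeR adjusted p = 0.56, 0.572% of genes called) and -0.05 without male replicate 3, and cocaine-seeking against non-ensemble -0.10 (SE 0.20, edgeR adjusted p = 0.82, 0.0901% called), which turned to 0.07 without male replicate 3. The differences of cocaine-seeking from sucrose-seeking (0.24), of cocaine-seeking from overlapping (0.14) and of overlapping from sucrose-seeking (0.10) had edgeR adjusted p of 0.88, 1.00 and 0.98, with 0.416%, 0% and 0.329% of genes called.

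**Figure D2:**
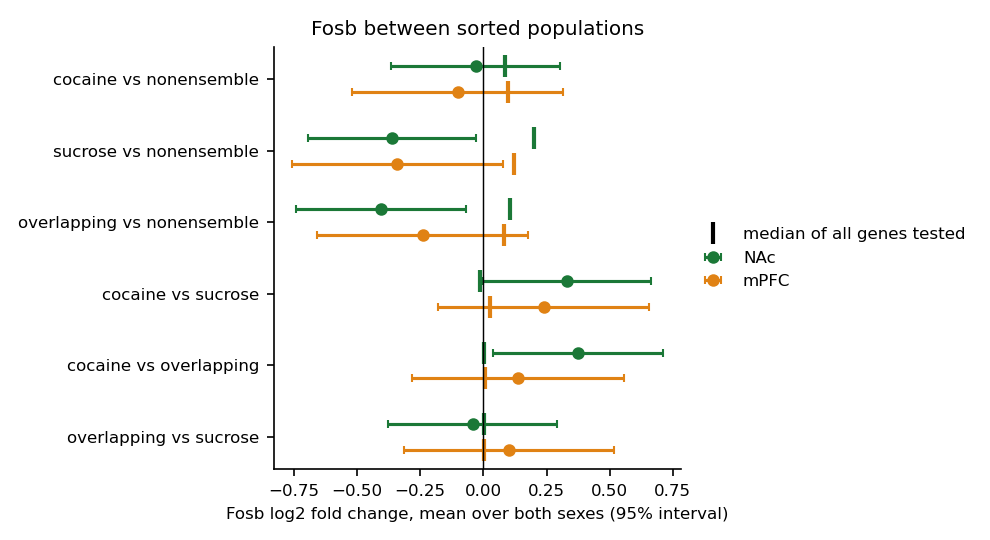
Log2 difference in Fosb for the 6 population comparisons in the NAc and the mPFC over both sexes, with points for the edgeR estimates and bars for 95% confidence intervals. The intervals of sucrose-seeking and overlapping against non-ensemble in the NAc (-0.70 to -0.03 and -0.74 to -0.07) and of cocaine-seeking against overlapping there (0.04 to 0.71) leave out 0 before adjustment, and all 6 intervals in the mPFC include it.

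Within single regions and sexes, Fosb was called in 0 of 24 population comparisons by edgeR and in 0 by DESeq2, and 1 of the 24 had an unadjusted p under 0.05 by edgeR. Of all genes, edgeR called 15.9% and 9.39% in sucrose-seeking against non-ensemble of the female and male NAc, and 0.025% and 0.205% in that of the female and male mPFC. In the same order of sets, it called 0.0391%, 0.12%, 0.0608% and 0% in overlapping against non-ensemble, 0.363%, 0.0241%, 0.0214% and 0.0118% in cocaine-seeking against sucrose-seeking and 0.0234%, 0.112%, 0.0894% and 0.0157% in overlapping against sucrose-seeking. It called 0.00781% in cocaine-seeking against non-ensemble of the female NAc and 0% in the other comparisons of cocaine-seeking cells. The comparison with a low unadjusted p was overlapping against non-ensemble in the female NAc, at a log2 difference of -0.55 (edgeR adjusted p = 0.43), and without pool 2, which holds the Y-linked reads, at -0.84 (edgeR adjusted p = 0.22). With length-scaled counts it was -0.07 (adjusted p = 0.95). Sucrose-seeking against non-ensemble gave -0.47 in the female NAc (edgeR adjusted p = 0.19; -0.08 with length-scaled counts; -0.48 with an adjusted p of 0.25 without pool 2) and -0.62 in the male mPFC (edgeR adjusted p = 0.29). The latter was -0.58 and called with the pool as a block (edgeR adjusted p = 0.045, where 17.2% of all genes were called). It was -0.15 without the non-ensemble library of pool 3, and -0.81 (edgeR adjusted p = 0.38) without pool 2, whose cortical marker sum was low. Neither the 12 differences of these contrasts between the sexes nor the 6 between the regions was called for Fosb, in fits where at most 0.00693% of all genes were.

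Cell type markers also differed in these contrasts, counted here at an edgeR adjusted p under 0.05 and set beside all genes called. In NAc sucrose-seeking against non-ensemble, all 5 neuronal markers and all 5 astrocyte markers were lower (median log2 differences -0.74 and -0.66) and all 5 endothelial markers higher (1.20). Also lower were 3 of 4 cortical and 3 of 6 striatal projection neuron markers, 2 of 5 oligodendrocyte markers and 1 of 6 microglial markers. Of all 27546 genes, 3082 were higher and 4352 lower. In the mPFC 3 of 5 neuronal, 2 of 5 oligodendrocyte and 1 of 5 astrocyte markers were lower and 3 of 5 endothelial markers higher. Of all 28851 genes, 1905 were higher and 1836 lower. In NAc overlapping against non-ensemble all 6 microglial markers were higher (median 1.03) and 1 of 5 neuronal markers, Snap25, was lower. Of all 27546 genes, 325 were higher and 251 lower. Cocaine-seeking against non-ensemble had 4 of 6 microglial markers higher in the NAc and 5 of 6 in the mPFC, and mPFC overlapping against non-ensemble 5 of 6. All genes called higher came to 38 of 27546, 24 of 28851 and 116 of 28851 in the same order. In mPFC overlapping against non-ensemble 2 of 5 oligodendrocyte markers were lower, as were 49 of all genes. Against sucrose-seeking cells of the NAc, cocaine-seeking cells were higher in all 5 astrocyte, all 6 microglial and 4 of 5 neuronal markers (medians 0.66, 1.08 and 0.48) and lower in 4 of 5 endothelial markers (-0.79). Of all 27546 genes, 1202 were higher and 255 lower. Overlapping cells were higher than sucrose-seeking cells there in 3 of 5 astrocyte and all 6 microglial markers (0.54 and 1.40) and lower in 4 of 5 endothelial markers (-1.14). Of all 27546 genes, 262 were higher and 39 lower. Against sucrose-seeking cells of the mPFC, 5 of 6 microglial markers were higher in cocaine-seeking cells, as were 29 of 28851 genes. In overlapping cells there all 6 were higher and 1 of 5 endothelial markers was lower, as were 62 and 33 of all genes. The part of these shifts in the values of Fosb and of the genes listed with it was not tested.

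Fosb was higher in the mPFC than in the NAc in 5 of 6 pools, and edgeR called this difference over both sexes and in males. The fit took the 4 populations of a pool as separate libraries, though they were taken to come from the same mice. Its SE and p therefore do not measure the spread between pools and can overstate the evidence. The mean over the 4 populations of a pool was 12.2, 14.9 and 14.1 CPM in the NAc of female pools 1 to 3 and 13.9, 18.5 and 12.9 CPM in their mPFC. In male pools 1 to 3 it was 15.1, 16.9 and 15.5 CPM in the NAc and 15.5, 23.2 and 28.0 CPM in the mPFC. The mPFC was higher in 2 of 3 female and 3 of 3 male pools, and within a pool and population in 9 of 12 female and 11 of 12 male pairs. Male pool 1 differed by 0.328 CPM and male pool 3 by 12.5 CPM, so the male pools were far from alike. Without TMM scaling the mPFC was higher in 6 of 6 pools.

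Over the 4 populations and both sexes the mPFC was higher than the NAc by 0.30 on the log2 scale (SE 0.095, edgeR adjusted p = 0.0090). Libraries and not pools were the unit of this test and of the others between regions over the 4 populations. In this contrast 48.5% of all genes were called and the median of all genes was 0.20. Without male replicate 3 the difference was 0.23 with an adjusted p of 0.077. In males alone it was 0.47 (SE 0.13, edgeR adjusted p = 0.017), with a median of all genes of 0.01 and 8.81% of genes called. It was 0.47 with an adjusted p of 0.12 without male replicate 2, and 0.28 with an adjusted p of 0.31 without male replicate 3. In male pools 1 and 3, whose mPFC libraries have the higher cortical marker sums, it was 0.49 (edgeR adjusted p = 0.245).

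In females the difference was 0.13 (SE 0.13, edgeR adjusted p = 0.39), below the median of all genes of 0.43, with 62.4% of genes called, and without pool 2 it was 0.14 (edgeR adjusted p = 0.46). The male difference exceeded the female by 0.34 (edgeR adjusted p = 0.15, 38.7% of genes called). By population, the mPFC minus NAc difference was 0.44 in overlapping (edgeR adjusted p = 0.12), 0.29 in non-ensemble (0.27), 0.25 in sucrose-seeking (0.55) and 0.20 in cocaine-seeking cells (0.47), where 13.1%, 21.9%, 7.32% and 19.4% of genes were called. The overlapping libraries were higher in the mPFC in 6 of 6 pools, and their difference was called under 2 of 12 alternatives, at 0.53 with an adjusted p of 0.041 by DESeq2 and 0.54 with an adjusted p of 0.044 by edgeR without male replicate 1. Over the 12 its adjusted p ran from 0.041 to 1.00. The non-ensemble difference was 0.08 without male replicate 3 and 0.81 with length-scaled counts (edgeR adjusted p = 0.82 and 0.052). In male pools 1 and 3 alone the differences were 0.54 in overlapping, 0.98 in non-ensemble, 0.11 in sucrose-seeking and 0.33 in cocaine-seeking cells, with an edgeR adjusted p of 0.43 in non-ensemble and of 1.00 in the other 3.

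**Figure D3:**
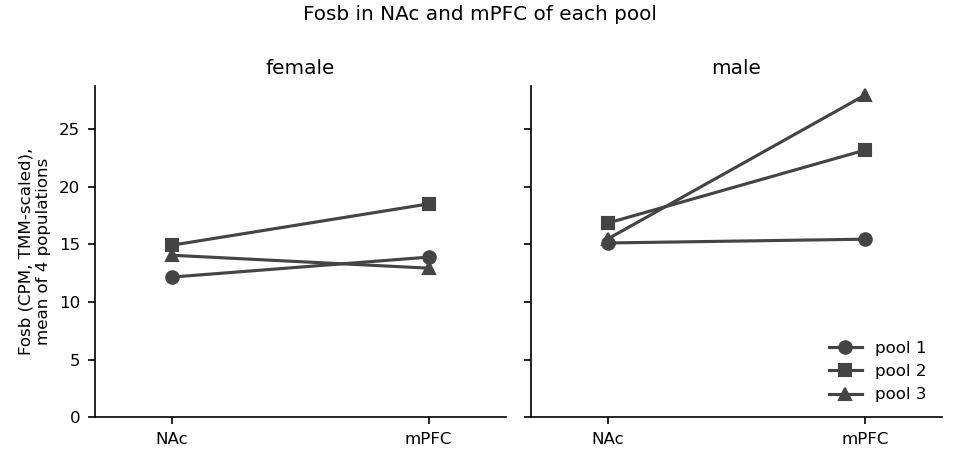
Fosb in the NAc and the mPFC of each pool, as the mean TMM-scaled CPM over its 4 sorted populations, with a line joining the regions of a pool. The mPFC is higher in 5 of 6 pools, from a step of 0.328 CPM in male pool 1 to one of 12.5 CPM in male pool 3.

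The 2 transcripts found in every sorted library were the full-length Fosb-201 and the retained-intron Fosb-204. Over the 48 libraries Fosb-201 held 67.1% of the Fosb counts and 52.8% of its TPM (transcripts-per-million, counts divided by effective length). Fosb-204 held 22.2% of the counts and 24.1% of the TPM. Fosb-206, the truncated form, held 8.26% of the counts and 21.1% of the TPM but was above 0 in only 21 of 48 libraries, with at most 162 counts and 47.8 TPM. Fosb-205 was above 0 in 9 libraries, Fosb-202 in 3 and the second truncated transcript, Fosb-207, in 2. Fosb-203 was listed at 0 in all 60 libraries.

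The truncated form was detected in a similar number of libraries of each population. Taking Fosb-206 and Fosb-207 together, it was above 0 in 5 of 12 cocaine-seeking, 6 of 12 sucrose-seeking, 7 of 12 overlapping and 5 of 12 non-ensemble libraries. By region and sex it was above 0 in 8 of 12 libraries of the female NAc, 2 of 12 of the female mPFC, 5 of 12 of the male NAc and 8 of 12 of the male mPFC. Where it was above 0 the median Fosb count was 239 (130 to 493), and where it was at 0 it was 212 (103 to 393). The median count was also higher where the form was above 0 within each region and sex, at 222 against 216 in the female NAc, 274 against 204.5 in the female mPFC, 211 against 199 in the male NAc and 325.5 against 269.87 in the male mPFC. The median effective length of Fosb-201, which Salmon sets from the fragment lengths and biases of a library, was 1340 bases in the former and 859 bases in the latter, and the part of either in the detection was not tested. An estimated count of 0 at this depth does not show that the form is absent.

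The share of the truncated form among spliced coding transcripts (TPM of Fosb-206 and Fosb-207 over that of all 6 coding transcripts) ranged from 3.14% to 86.5% in the 23 libraries where it was above 0, with a median of 47.3%. By counts instead of TPM the same 23 libraries ranged from 1.36% to 53.1%, with a median of 18.2%, since Fosb-206 is the shortest transcript in the files and each of its counts weighs more in TPM. In the female NAc the TPM shares in pools 1 to 3 were 11.7%, 54.5% and 0% for cocaine-seeking, 3.40%, 35.7% and 0% for sucrose-seeking, 0%, 54.9% and 29.4% for overlapping and 50.8%, 56.9% and 0% for non-ensemble libraries. In the male NAc they were 86.5%, 0% and 0%, then 0%, 0% and 63.6%, then 18.9%, 0% and 44.5%, and then 0%, 0% and 56.2% in the same order of populations. Each population of each sex in the NAc thus held at least 1 library at 0% beside 1 of at least 35.7%.

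In the female mPFC the share was 0% in 10 of 12 libraries, and 4.48% and 14.1% in the sucrose-seeking and overlapping libraries of pool 2. In the male mPFC it was 66.2%, 44.5% and 0% for cocaine-seeking, 0%, 8.43% and 3.14% for sucrose-seeking, 84.8%, 0% and 47.3% for overlapping and 0%, 56.1% and 79.5% for non-ensemble libraries. The male non-ensemble library of pool 3 with the highest Fosb level was also the one with the most truncated TPM, at 47.8 against 12.3 TPM full-length. The truncated share was compared between populations by an exact permutation test within sex over 6 against 6 libraries. It exchanged libraries across pools, though the populations of a pool were taken to come from the same mice. With the many shares tied at 0%, the lowest p the test allowed was 0.005 to 0.02 in the NAc comparisons and 0.02 to 0.1 in the mPFC, where 5 of 6 comparisons could not go under 0.05. All 12 had an adjusted p of 1.00 in this exact test, which in those 5 says nothing of a difference. Adjusted over all 12, a lone p of 0.005 would not have passed 0.05 either, so the other comparisons say little of a difference. The smallest unadjusted exact permutation p was 0.2, for overlapping at 24.4% ± 34.8 (SD, n = 6) against sucrose-seeking at 2.67% ± 3.41 in the mPFC, a difference of 21.7 percentage points. An exact test that keeps the pools, by flipping the sign of each pool's difference, allowed no p under 0.0625. No comparison could therefore pass 0.05 in it, and its smallest p was 0.25, for the same 2 populations of the mPFC.

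Tested as single transcripts with edgeR over both sexes, no Fosb transcript was called in any of the 12 population comparisons, while of all transcripts 8.99% and 4.72% were in sucrose-seeking against non-ensemble of the NAc and the mPFC. In the other NAc comparisons 0.0266% (overlapping) and 0.00253% (cocaine-seeking) were called against non-ensemble, 0.0152% and 0.024% for cocaine-seeking and overlapping against sucrose-seeking and 0.00127% for cocaine-seeking against overlapping. In the mPFC these shares were 0.0369%, 0.0255%, 0.0127%, 0.0217% and 0.00127% in the same order. In NAc overlapping against non-ensemble Fosb-201 had a log2 difference of -0.54 (SE 0.24, edgeR adjusted p = 0.33). Fosb-206 was at -0.45 (SE 1.83) and Fosb-204 at -0.31 (SE 0.36), and the part of each in the gene-level value was not tested. The fits of Fosb-205, and those of Fosb-206 in the mPFC, where whole groups were at 0, give no usable size of a difference. The lowest unadjusted edgeR p of Fosb-206 in the mPFC was 0.035 (adjusted p = 0.73), for overlapping against sucrose-seeking.

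The retained-intron transcript Fosb-204 took a larger share of Fosb in the female mPFC than elsewhere. It made up 18.8% to 54.5% of the Fosb TPM in the 12 female mPFC libraries (mean 40.4%), 5.91% to 37.4% in the female NAc, 8.39% to 38.1% in the male NAc and 6.66% to 29.4% in the male mPFC. Averaged over the populations of a pool it was 47.1%, 30.3% and 43.9% in the female mPFC of pools 1 to 3 and 17.1%, 9.64% and 19.9% in their NAc, so it was higher in the mPFC in 3 of 3 female pools. In males it was 16.9%, 15.9% and 18.1% in the mPFC and 16.5%, 23.9% and 20.1% in the NAc, higher in the mPFC in 1 of 3 pools. With 3 pools against 3, no permutation test over pools can reach 0.05, and none is given.

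The female mPFC libraries also had the largest share of counts on olfactory, vomeronasal and other chemoreceptor genes, which brain neurons are not known to express widely. That share was 3.20% to 6.65% there and 1.05% to 4.54% in the other 36 libraries. Over the 48 libraries the retained-intron share of Fosb and the chemoreceptor share had Pearson r = 0.80 (Spearman rho 0.71), and r of 0.69, 0.64, 0.25 and 0.60 within the female NAc, female mPFC, male NAc and male mPFC (n = 12 each). Retained-intron transcripts of all genes together held 10.6% to 18.5% of the TPM in the female mPFC libraries and 9.42% to 16.6% in the other 36. With this library-wide share, the retained-intron share of Fosb had Pearson r = 0.64 over the 48 libraries. Within the sets, in the same order, r was 0.76, 0.67, 0.025 and 0.38. These libraries share pools and differ in depth, so the r are descriptions. The part of chemoreceptor reads or of the library-wide share in the retained-intron values of Fosb was not tested.

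**Figure D4:**
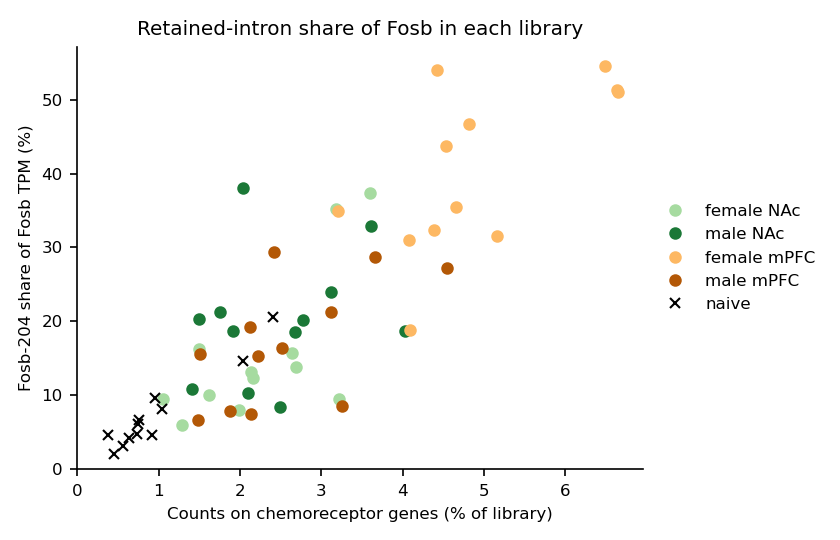
Share of the Fosb TPM on the retained-intron transcript against the share of all counts on chemoreceptor genes, both in percent, with a point for each of the 48 sorted libraries by region and sex. The female mPFC libraries, at 18.8% to 54.5% retained intron, lie at the upper right, with 3.20% to 6.65% of counts on chemoreceptor genes.

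Set against its relatives per transcript length, Fosb stood in the middle of the AP-1 genes, with 6 of the 11 relatives above it and 5 below. Its median over the 48 libraries was 18.7 TPM, against 24.6 TPM for Fos. That total includes the retained-intron Fosb-204 and the short Fosb-206, and Fosb-201 alone had a median of 10.6 TPM. The further Fos-type subunits Fosl2 and Fosl1 were at 40.8 and 1.37 TPM. The Jun-type partners Jund, Junb and Jun were at 224, 48.4 and 31.8 TPM, and Jdp2, a repressive dimer partner, at 65.0 TPM. The leucine zipper relatives Batf, Batf2, Atf3 and Batf3 were at 3.90 to 5.71 TPM. By gene totals, the order of Fosb and Fos was not the same in all libraries. The ranges were 6.84 to 65.2 TPM for Fosb and 9.18 to 92.8 TPM for Fos. Their medians were 14.1 and 24.4 TPM in the NAc but 26.1 and 24.8 TPM in the mPFC, with all Fosb transcripts counted.

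cFos protein defined the sucrose-seeking and overlapping cells in the sort. Fos mRNA was called by edgeR in 0 of the 12 population comparisons, with 2 at an unadjusted p under 0.05. Its value in sucrose-seeking against non-ensemble cells of the mPFC was a log2 difference of -0.56 (SE 0.21, edgeR adjusted p = 0.076). Across the 48 libraries Fosb and Fos had Pearson r = 0.35 in CPM, and 0.19, 0.40, 0.38 and -0.35 within the female NAc, female mPFC, male NAc and male mPFC (n = 12 each), as descriptions only. The non-ensemble library with 41.8 CPM of Fosb held 13.3 CPM of Fos, the lowest of its group.

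The other genes of the pathway were counted in 5 lists of 46 genes: 11 AP-1 relatives, 12 upstream regulators, 5 genes of splicing and phosphorylation, 8 described targets and 10 further activity genes. Without a block the contrast with the most calls was NAc sucrose-seeking against non-ensemble, where 20 of 46 passed, 2 higher and 18 lower, against 27% of all genes, 11.2% higher and 15.8% lower. Among the AP-1 relatives 5 of 11 were lower: Jund at a log2 difference of -0.89 (edgeR adjusted p = 8.72e-05), Junb at -0.67, Jun at -0.57, Jdp2 at -0.52 and Fosl2 at -0.51. Of the upstream regulators 6 of 12 were lower and 1 higher: Mef2d at -0.60, Srf, which binds the Fosb promoter, at -0.54, Mrtfb at -0.47 and Mef2c at -0.41, while Mef2a was higher at 0.39. Of the described ΔFosB targets 4 of 8 were lower, with Cdk5r1, the activator of the kinase CDK5, at -0.77 and the kinase Camk2a at -0.70, and Nfkb1 was higher at 0.37. The median of the 11 AP-1 relatives was -0.51 and of the 12 regulators -0.30, against 0.20 over all genes.

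In mPFC sucrose-seeking against non-ensemble 12 of 46 passed, 10 lower and 2 higher, against 13% of all genes, 6.36% lower and 6.6% higher. The lower ones included Jund (-0.69), Fosl2 (-0.53), Jun (-0.55), Mef2d (-0.59) and Csnk2b (-0.76), a subunit of casein kinase 2, which phosphorylates ΔFosB. Nfkb1 and the activity gene Npas4 were higher, by 0.56 and 0.74. With the pool as a block 26 passed, where 25.3% of all genes did, more than the 24 that passed with the block in that contrast of the NAc. Between cocaine-seeking and sucrose-seeking cells of the NAc 5 of 46 passed, and all were higher in cocaine-seeking, as 4.36% of all genes were: Jund by 0.52, Csnk2b by 0.48, Cdk5r1 by 0.43, Jdp2 by 0.42 and Mef2d by 0.36. Between overlapping and sucrose-seeking cells there only Jund passed, at 0.67, where 0.951% of all genes were higher, and between overlapping and non-ensemble cells only Camk2a, at -0.45, where 0.911% were lower. With the pool as a block 15, 16 and 14 members passed in these 3 comparisons, where 15%, 10.7% and 16% of all genes did.

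The cocaine-seeking contrasts against non-ensemble had 0 of 46 passing in each region by edgeR, with 9 members in the NAc and 19 in the mPFC at an unadjusted p under 0.05, and 2 and 7 passing by DESeq2. With the pool as a block these counts were 10 and 20, where 9.36% and 15.8% of all genes were called. For the other comparisons with the block, all genes called came to 32.9% in NAc sucrose-seeking and 14.4% in mPFC overlapping against non-ensemble, and in the mPFC to 5.55% and 5.74% for cocaine-seeking and overlapping against sucrose-seeking. Cocaine-seeking and overlapping cells differed for no member in either region, and 1 and 0 members had an unadjusted p under 0.05 in the NAc and the mPFC. The splicing regulators Ptbp1 and Ptbp2, which act on the exon 4 choice, were called by edgeR in 0 of the 12 comparisons each, with 3 for Ptbp1 and 2 for Ptbp2 at an unadjusted p under 0.05.

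The gene whose pattern was closest to Fosb over the 48 libraries, by Pearson r of log2 CPM among 21371 genes with a mean of at least 1 CPM, was Nr4a3, an immediate early nuclear receptor, with r = 0.72. It was followed by the histone gene H2ac15 (0.645), Gm20922 (0.627), Gm21719 (0.616), Nfix (0.615), Gm57923 (0.615), Gm50460 (0.612), Nfia (0.611), Gm29159 (0.609) and Gm29352 (0.603). Fos ranked 304th (r = 0.43). With the mean of each region and sex taken off, the closest were Crabp1 (0.680), Plk2 (0.630), Kcnj4 (0.624), Tamalin (0.619), Arpp19 (0.619), Shroom2 (0.615), Htr2a (0.614), Ppp1r2 (0.613), Btbd10 (0.607) and the immediate early gene Egr3 (0.604), and Fos ranked 8084th (r = 0.07). The lists share no gene, and the r are descriptions over libraries that share pools.

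The truncated form had an estimated count above 0 in every naive library, though the lowest held only 0.419% of its coding Fosb counts on it. Fosb-206 was above 0 in 12 of 12 and held 28.5% of the Fosb counts and 60.2% of the TPM, at 69.3% in males and 41.2% in females. The truncated share among coding transcripts was 45.1%, 66.6% and 77.2% in the naive female NAc, 8.32%, 72.9% and 0.965% in the female mPFC, 72.7%, 74.6% and 81.5% in the male NAc and 61.6%, 74.4% and 68.0% in the male mPFC. The retained-intron share was 2.01% to 9.66% in 9 of these 12 libraries and 8.17% to 20.6% in those of the female mPFC. The 6 male naive files give values to 6 decimals and the 54 other files to 3, which shows that the quantification was not written in the same way, and all naive libraries are deeper, so these levels were compared by no test.

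At the level of the gene, naive libraries of the male NAc held 23.0, 22.3 and 24.2 CPM of Fosb, above each of the 12 sorted male NAc libraries (12.2 to 21.7 CPM). Without TMM scaling they held 18.3 to 21.2 CPM, and 2 of the 12 sorted libraries lay above the lowest of them. In the male mPFC they held 38.1, 44.9 and 39.6 CPM, above 11 of 12 sorted libraries. In females the naive values of 13.9, 21.6 and 12.1 CPM in the NAc and 15.1, 23.4 and 18.0 CPM in the mPFC overlapped with those of the sorted libraries. Fos mRNA in the naive male mPFC was 80.3 to 107 CPM, against 10.1 to 29.8 CPM in the 12 sorted libraries there.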

How the data were processed

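Low-input SMART-seq libraries of sorted NeuN-positive cells were sequenced as paired reads. Per the labels and the study's methods, the authors trimmed reads with CutAdapt and quantified transcripts with Salmon against GRCm39, with versions that the sources used here do not give. The deposited values are the estimated counts per transcript that the authors' Salmon run assigned, which need not be whole and are not normalized. TPM are also as deposited by the authors, scaled by Salmon for effective length and depth. Of 117209 transcript identifiers, 116085 were matched to GENCODE vM39 without their version numbers and summed to 35889 genes, and 1124 were left out. Estimated counts were rounded before testing.

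Gene and transcript counts were tested with edgeR 4.0.16 (R 4.3.3, TMM scaling, filterByExpr, quasi-likelihood test) over all features, with Benjamini-Hochberg adjustment and a threshold of 0.05. Each region and sex was fitted with its 4 populations as groups, each region over both sexes with sex and population as groups, and both regions together. DESeq2 1.42.0 was an alternative. Others were its size factors, no filter on low counts, counts scaled to transcript length, the pool as a replicate block, and leaving out each library or pool. Shares were compared by a two-sided exact permutation test within sex (Python 3.11.15, scipy 1.17.1). The alternative with the pool as a block flipped the sign of each pool's difference. Same-numbered libraries of a sex were taken as coming from the same mice, since the methods give 3 pools per sex, though the labels do not tie the numbers to pools. The mean correlation of their deviations from the group means was 0.092 to 0.17 within the 4 sets of region and sex. The lowest among same-numbered pairs of a set was -0.0054 to 0.065. The means for other numbers, -0.085 to -0.046, follow from taking off the means of groups of 3 and are no separate evidence. Pools are separate groups of mice, so the spread between them includes biological and technical error.

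The procedure was tested on simulated counts: in NAc cocaine-seeking against non-ensemble over 27546 genes, edgeR recovered 42% of 100 genes changed 2-fold and 64% of 100 changed 4-fold, and in NAc transcripts 1% and 20%. For the same comparison in the female NAc alone edgeR recovered 33% and 51%, and in the male mPFC alone 18% and 46%. The changed genes were drawn from all genes tested, so recovery at the level of Fosb was not measured. Counting error is included in these tests, and estimated counts also carry the uncertainty of assigning reads to isoforms, which was not measured.

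Genes named are Fosb and its transcripts, Fos, up to 4 list members per comparison with the smallest adjusted p, and the 10 genes closest to Fosb by correlation, with and without the means of region and sex. Further list members were named after their values were seen, and so was the check on chemoreceptor genes. The members and lists were chosen with earlier results of these data known. A member of a marker list is not reported here, and the list's sum leaves it out.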

Additional observations from a re-analysis of the deposited data

Results flagged for a closer look

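The truncated-form share in the naive libraries, which enter no comparison, lay above that of every non-ensemble library of the same region and sex in 2 of 4 cases. In the naive female mPFC the lowest library held 0.965%, against 0% in the 3 non-ensemble libraries, a small value beside the 8.32% and 72.9% of the other two. In the naive male NAc the lowest library held 72.7%, against a highest non-ensemble value of 56.2%. The naive libraries were deeper, and the male naive files were written with another number of decimals. The part of these in the difference was not tested.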

How the results depend on the processing

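Of the 12 log2 differences of Fosb between populations over both sexes, length-scaled counts turned NAc cocaine-seeking against non-ensemble to 0.32 and NAc sucrose-seeking against non-ensemble to 0.16. With the pool as a replicate block mPFC sucrose-seeking against non-ensemble was called at -0.32 (edgeR adjusted p = 0.046), which made 1 called comparison of 12, and male mPFC sucrose-seeking against non-ensemble was called at -0.58 (edgeR adjusted p = 0.045), which made 1 of 24. The block changed no other call of Fosb. DESeq2 called mPFC against NAc in overlapping cells at 0.53 (adjusted p = 0.041). In males, with pools 1 and 3 only, mPFC against NAc was 0.49 and not called (edgeR adjusted p = 0.245), which left 1 region contrast called in place of 2. The causes were not tested.

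Leaving out each pool in turn gave, in the NAc, -0.19 to 0.12 for cocaine-seeking, -0.50 to -0.21 for sucrose-seeking and -0.55 to -0.31 for overlapping against non-ensemble, and -0.24 to 0.02 for overlapping against sucrose-seeking. In the mPFC it gave -0.21 to 0.07 for cocaine-seeking and -0.33 to -0.05 for overlapping against non-ensemble. Sucrose-seeking against non-ensemble in the NAc passed without male replicate 1, at -0.50, so 0 to 1 comparisons were called. The values that turned were 0.12 without female replicate 3 and 0.06 without male replicate 2 for NAc cocaine-seeking against non-ensemble, 0.016 without male replicate 1 for NAc overlapping against sucrose-seeking, and 0.071 without male replicate 3 for mPFC cocaine-seeking against non-ensemble. For mPFC against NAc the ranges were 0.23 to 0.41 over the 4 populations, 0.28 to 0.65 in males and 0.41 to 0.54 in overlapping cells, and 0 to 3 region contrasts were called.

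Of the 46 list members, DESeq2 called 2 in NAc cocaine-seeking, 4 in NAc overlapping, 7 in mPFC cocaine-seeking and 5 in mPFC overlapping against non-ensemble, and 4 in NAc overlapping against sucrose-seeking. DESeq2 size factors in edgeR gave 2 in NAc overlapping against non-ensemble. With the replicate block the counts against non-ensemble were 10 (cocaine-seeking) and 14 (overlapping) in the NAc and 20 (cocaine-seeking), 26 (sucrose-seeking) and 15 (overlapping) in the mPFC. Between cocaine-seeking and sucrose-seeking cells they were 15 in the NAc and 8 in the mPFC, and between overlapping and sucrose-seeking cells 16 and 5.

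Alternatives for the naive libraries were not run, because no test was made of them. Depth limits the isoforms: Fosb had 103 to 493 estimated counts in a sorted library, and an estimated count of 0 for the truncated form sets no limit on its share.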
